A study of Mus musculus with 20 samples.

Results

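The genes described here are 49 rows of a mouse gene count table whose symbols belong to gene families of the motile cilium axoneme. The table has 43346 rows in all, of which 22032 are protein-coding. The 49 rows were chosen, and are called axoneme genes, by symbol alone. They are protein-coding rows whose name begins with Cfap, Dnah, Dnaic, Dnali, Rsph, Tekt or Drc followed by a digit. Cfap54 was set aside as the gene they are compared with, and genes close to Abca7 on chromosome 10 were to be left out, which removed 0 rows. The 49 rows carry 48 symbols, because Cfap46 stands on 2 rows. They comprise 15 axonemal dynein heavy chains, 3 other dynein chains, 8 radial spoke proteins, 2 subunits of the nexin-dynein regulatory complex, 5 tektins and 16 cilia and flagella associated proteins (Cfap).

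RNA was sequenced from the cortex of mice that all carried the 5xFAD transgenes (5xFAD+/-), human genes with familial Alzheimer's disease mutations that lead to amyloid deposits. Control libraries came from mice with wild-type Abca7 (Abca7WT/WT) and the KI libraries from mice with an alanine to serine substitution knocked into Abca7, a lipid transporter gene, at 3 and at 10 months of age, with 5 libraries in each of the 4 groups. The substitution is called A693S in the growth protocol and A696S in the design text. The protocol names male littermates and both heterozygous (Abca7WT/KI) and homozygous (Abca7KI/KI) knockin mice, so the zygosity behind a given KI library is not known. The study asked what the substitution does to amyloid pathology and the immune response of the brain. No label says whether libraries of a group came from different animals. The p-values therefore rest on the variation among libraries, which may in part be technical.

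A motile cilium is built on an axoneme, a ring of doublet microtubules around a central pair. Outer and inner dynein arms on the doublets slide them past each other, radial spokes carry signals from the central pair to the arms, the nexin-dynein regulatory complex links neighbouring doublets, and tektins run inside the doublet wall. In the brain such cilia are borne mainly by ependymal cells, which line the ventricles. Neurons and astrocytes carry a primary cilium that lacks most of this machinery. Cfap54 is a subunit of the C1d projection of the central pair, together with Cfap46, Cfap74 and Cfap221.

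Libraries held 42896149 to 57447015 counts, and 19623 genes passed the filter on low counts and were tested. Xist reached 54206 counts in KI replicate 5 at 10 months, which had 1 count of the Y-linked Ddx3y, unlike the other 19 libraries. Some results, among them those of Cfap54, Rsph10b and Cfap52, are given with and without that library. The 5 defining markers of ependyma (Foxj1, Tmem212, Ccdc153, Rarres2 and Mia) summed to only 8.88 to 20.7 CPM (counts scaled to library size). Ttr, the leading transcript of choroid plexus, ran from 13.9 to 2036 CPM and differed widely within each group. In bulk tissue, fewer cells of a type and less RNA per cell cannot be told apart.

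Most of the axoneme genes were present at a low level. Over the 20 libraries, 39 of the 49 had a mean of at least 1 CPM and 10 of at least 10 CPM, with a median of 3.71 CPM and a range from 0.0932 (Tekt3) to 81.5 CPM (Cfap36). The filter kept 47, and Tekt3 and Rsph6a, a radial spoke head gene of sperm, were not tested. Per kilobase of the deposited gene length, the highest levels were those of Cfap36 (29.7 CPM per kb) and Cfap20 (27.2), followed by Drc1 (8.98), Cfap97 (7.14), Rsph9 (6.40) and Cfap69 (5.63). Cfap36 encodes a partner of the small GTPase Arl3 and Cfap20 a protein of the inner junction between doublet tubules.

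The dynein heavy chains lay lowest per kilobase. Their median was 0.207 CPM per kb, against 2.12 for radial spoke genes, 0.916 for the Cfap genes and 1.01 for the tektins. Dnah1, an inner arm heavy chain, led them at 1.21 CPM per kb, before Dnah5, the outer arm heavy chain that is often mutated in primary ciliary dyskinesia, at 0.847. Dnah17, Dnah8 and Dnah14 had means under 1 CPM, and Dnah17, an outer arm chain of sperm, was the lowest of all 49 per kilobase at 0.0237. The deposited row of Dnah14 is 2393 bases long, against 13696 for its longest GENCODE M21 transcript, so its CPM may count only part of the gene. Transcripts were measured with 10 to 38 counts per library for Dnah17 and 3260 to 5272 for Cfap36, so precision differed greatly between members.

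Promoters were looked at for the binding letters of RFX and forkhead factors, since Rfx2, Rfx3 and Foxj1 are the known regulators of motile cilia genes. RefSeq (GRCm38.p6) gave a promoter for 42 of the 48 symbols, and the 250 bases before the annotated start were searched on both strands. The RFX letters GTTGCC stood in 12 of 42 (28.6%), against 11.8% of all 27025 gene symbols with a RefSeq promoter, which were not filtered by level. Dnah7a, Dnah7b and Dnah7c, whose transcripts are near copies of each other, are among the 12 and may not be separate hits. A looser form of the whole RFX site, read as GT, any 2 bases, CC, any 3 bases, G, any base and AAC, stood in 4 (9.52%, against 2.07%), and the forkhead letters TGTTTAC in 4, namely Cfap20, Tekt3, Dnah17 and Cfap43 (9.52%, against 3.54%). These RFX patterns can overlap. A stricter whole site, GTTGCC followed by ATGG, any base and AAC, stood in 0 of 42 and in 0.074% of all symbols with a promoter.

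The 4 promoters with the looser whole site are printed because they hold the most complete match found. Each run reads 5′ to 3′ on the gene's strand in GRCm38.p6, with the match in capitals. The letters of the pattern read along this strand in Dnah17 and Tekt4, and along the opposite strand in Cfap44 and Cfap45, where the capitals are the reverse complement.
Cfap44 (chr16:44394747-44394798, plus strand): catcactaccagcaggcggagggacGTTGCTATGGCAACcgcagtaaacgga
Cfap45 (chr1:172521086-172521129, plus strand): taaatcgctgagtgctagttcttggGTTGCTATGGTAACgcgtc
Dnah17 (chr11:118129340-118129403, minus strand): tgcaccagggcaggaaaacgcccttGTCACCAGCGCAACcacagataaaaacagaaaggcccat
Tekt4 (chr17:25471405-25471468, plus strand): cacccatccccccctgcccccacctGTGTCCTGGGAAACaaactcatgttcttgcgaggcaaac
In Cfap44, which encodes an inner arm tether, the match ended 14 bases before the RefSeq start. In Cfap45, the gene of a protein inside the doublet tubule, it ended 6 bases before that start. The deposited row of Cfap45 begins at 172520801, so there the match lies inside the gene as deposited. In Dnah17 and Tekt4 the match ended 146 and 147 bases before the RefSeq start. A match in letters is not a measured binding site. None of these 4 genes was called in any comparison below.

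The first comparison asked whether the axoneme genes followed Cfap54, which lies on chromosome 10 (92775619 to 93081618) and is lower in KI. At 3 months Cfap54 stood at 49.8, 48.9, 46.8, 44.6 and 45.8 CPM in control and at 23.03, 18.7, 15.6, 15.2 and 15.6 CPM in KI. At 10 months the levels were 58.4, 54.3, 44.9, 32.2 and 48.6 CPM in control and 13.5, 14.7, 16.9, 14.3 and 15.4 CPM in KI. Every KI library lay below every control library at both ages. The log2 fold change was -1.42 ± 0.13 (SE) at 3 months and -1.67 ± 0.13 at 10 months (edgeR quasi-likelihood test with Benjamini-Hochberg adjustment, adjusted p = 2.8e-06 and 2.31e-07). Without KI replicate 5 at 10 months, the library with Xist counts, it was -1.72 at that age (adjusted p = 1.05e-06). The fall of Cfap54 was known when it was set as the gene compared with, so these p-values describe it and add no support.

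No axoneme gene passed the same test. In edgeR 0 of 47 members passed an adjusted p of 0.05 for genotype at 3 months, where 0.0255% of all genes did, and 0 of 47 at 10 months, where 0.0612% did. With so few calls among all genes, a count of 0 in 47 says little by itself. At an unadjusted p under 0.05 the members numbered 1 of 47 at 3 months (2.13%, against 3.8% of all genes) and 3 of 47 at 10 months (6.38%, against 7.86%). DESeq2 called 0 at both ages, and limma-voom with quality weights called 0 at 3 months and 1, Rsph10b, at 10 months. Averaged over both ages the edgeR count was again 0 of 47 (background 0.0764%), with 4 at an unadjusted p under 0.05 (8.51%, against 6.52%). Limma-voom called 1 there, Cfap58. The shares of all genes are those of edgeR, and none was taken for DESeq2 or limma-voom.

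At 3 months the 95% interval of all 47 members lay above the point estimate of Cfap54, and at 10 months that of 46 did, the exception being Drc7, whose interval ran from -2.06 to 0.69. An interval reached below a log2 fold change of -1 for 1 member at 3 months, Tekt4 (from -1.14), and for 2 at 10 months, Drc7 and Dnah6 (from -1.28). The estimates of the members ran from -0.41 to 0.77 at 3 months and from -0.69 to 0.64 at 10 months. Between genotypes 0 of 47 members had groups that did not overlap at 3 months (0.657% of all genes) and 0 of 47 at 10 months (1.49%).

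The median log2 fold change of the 47 was 0.102 at 3 months, with 34 above 0 (72.3%, against 52.4% of all genes and a median of 0.005). At 10 months it was -0.044, with 20 above 0 (42.6%, against 50% and a median of 0). Members share libraries and are not replicates of a genotype, so these shares are descriptions. Only the replicate numbers 6 and 7 occur in both genotypes, so a block for the number links the genotypes only through those libraries. With that block the median at 3 months was -0.001. With the choroid plexus score in the model it was 0.056 at 3 months and 0.033 at 10 months, and with the thalamus score 0.069 and -0.04. At 3 months markers of other tissues lay on the same side as the members: choroid plexus 20 of 20 above 0 (median 0.876), thalamus 12 of 12 (median 0.385, 6 at an unadjusted p under 0.05) and meningeal fibroblasts 11 of 12 (median 0.402, 5 at an unadjusted p under 0.05). At 10 months the counts above 0 were 0 of 20, 6 of 12 and 9 of 12. EdgeR called 0 of these markers for genotype, and their part in the members' values was not tested beyond these fits.

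**Figure D1:**
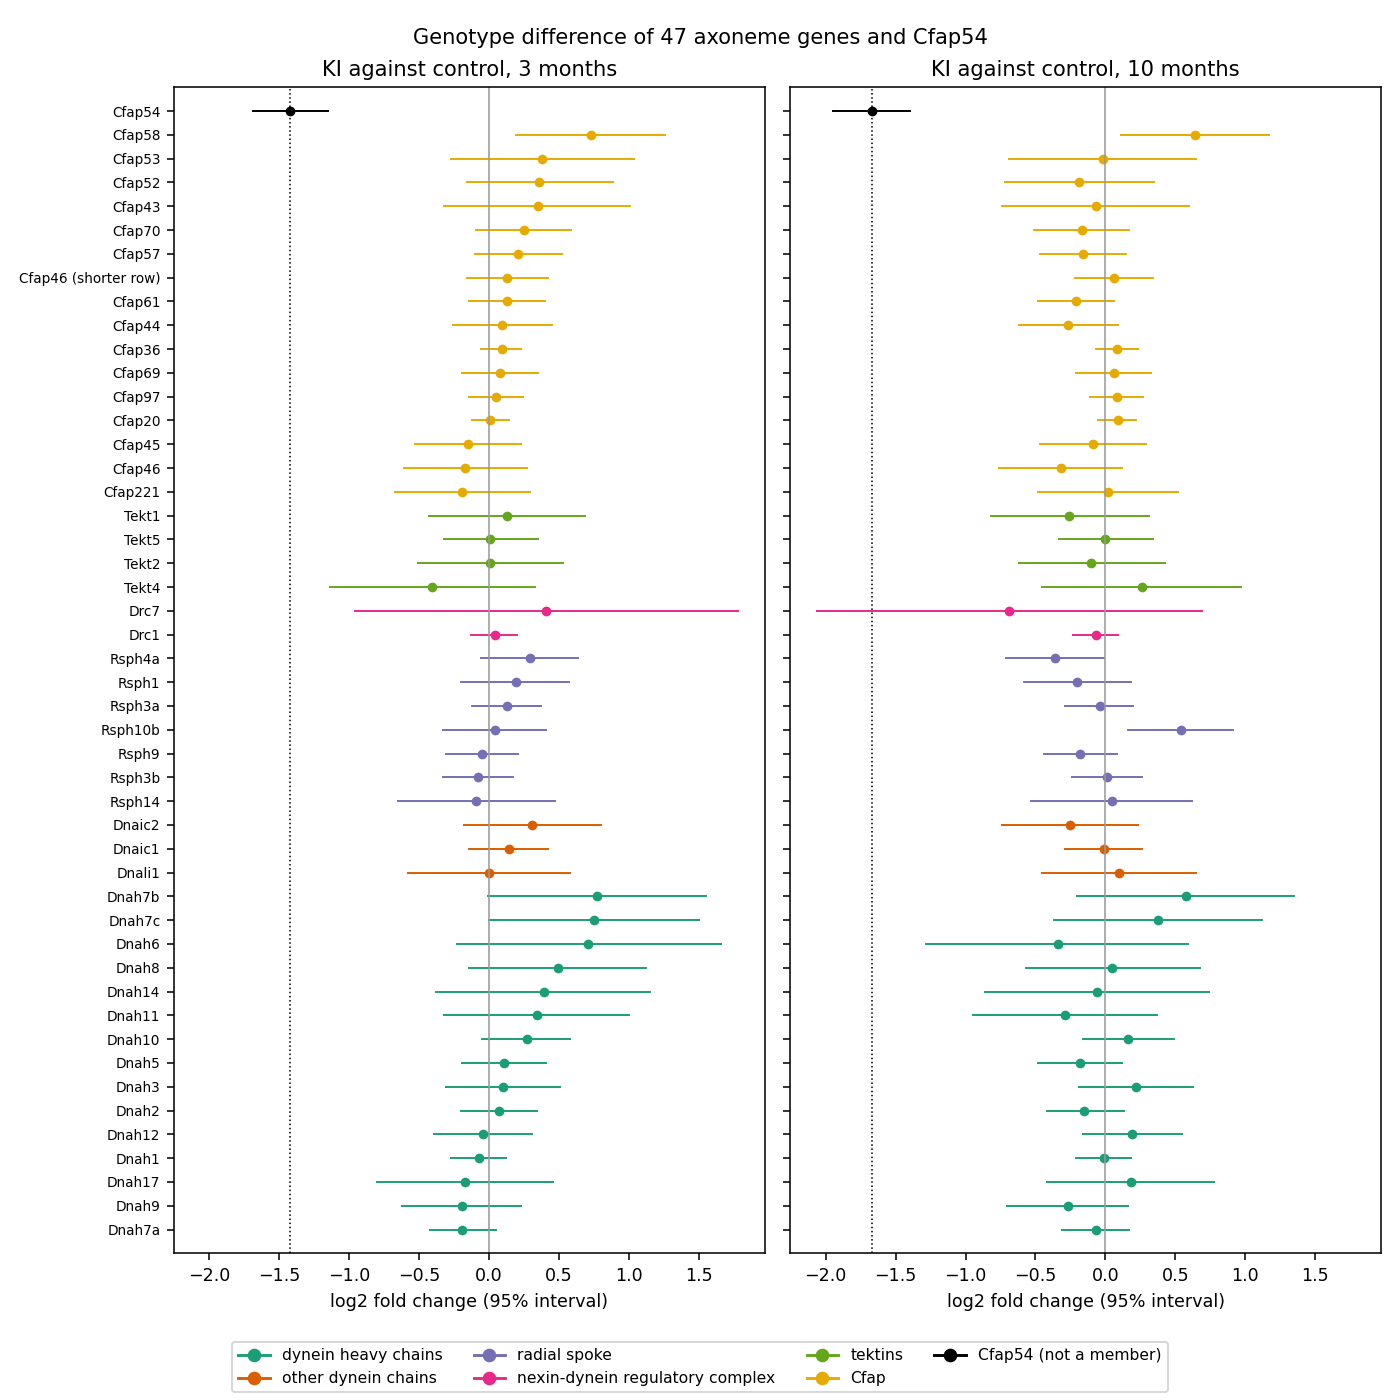
Log2 fold change of KI against control (points) with its 95% interval (lines) at 3 months (left) and 10 months (right) for the 47 tested axoneme genes, coloured by role, and for Cfap54 (black, with a dotted line at its estimate). Cfap54 lies at -1.42 and -1.67, while the members spread from -0.41 to 0.77 and from -0.69 to 0.64, with the widest interval for Drc7.

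The C1d partners of Cfap54 were examined first. Cfap46 (chromosome 7) has a longer row (ENSMUSG00000049571, 139638778 to 139683817) and a shorter one (ENSMUSG00000070357, 139600951 to 139616329), the second of which has no record in the GENCODE M21 annotation. The longer row stood at 6.81, 6.44, 8.40, 5.14 and 3.82 CPM in control and 6.83, 4.35, 5.46, 6.49 and 4.11 CPM in KI at 3 months. The libraries of 10 months stood at 8.19, 4.81, 6.05, 6.42 and 6.94 CPM in control and 5.02, 5.05, 4.87, 7.58 and 3.43 CPM in KI. The groups overlapped at both ages, and the log2 fold change of -0.17 ± 0.21 at 3 months and -0.32 ± 0.21 at 10 months did not pass the test (edgeR adjusted p = 1 and 0.752). The shorter row had 0.13 ± 0.14 and 0.06 ± 0.14.

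Cfap221 (chromosome 1, 119923341 to 119997234) was rare, at 0.665, 0.881, 0.674, 0.703 and 0.823 CPM in control and 0.922, 0.575, 0.806, 0.468 and 0.522 CPM in KI at 3 months. At the later age the levels were 0.682, 0.412, 0.764, 0.431 and 0.307 CPM in control and 0.608, 0.427, 0.469, 0.565 and 0.559 CPM in KI. The groups overlapped at both ages. The log2 fold change was -0.19 ± 0.23 at 3 months and 0.02 ± 0.24 at 10 months, and libraries held only 17 to 42 counts of it.

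The remaining partner, Cfap74, is deposited under its older symbol C030017K20Rik and so falls outside the rule. It stood at 29.7, 30.3, 31.2, 24.3 and 34.0 CPM in control and 32.0, 31.0, 33.8, 30.2 and 34.2 CPM in KI at 3 months. Levels at 10 months were 32.1, 29.6, 30.7, 30.6 and 30.6 CPM in control and 32.7, 32.8, 26.9, 31.9 and 29.0 CPM in KI. Its libraries were tightly grouped and overlapped between genotypes, with a log2 fold change of 0.11 ± 0.08 at 3 months and 0.00 ± 0.08 at 10 months.

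The ratio of Cfap54 to each partner is given as a description, because the fall of Cfap54 was known when the ratios were chosen. The log2 ratio of Cfap54 to Cfap74 averaged 0.666 ± 0.169 in control and -0.889 ± 0.282 in KI at 3 months (SD, n = 5 each, difference -1.55). At 10 months it averaged 0.605 ± 0.329 in control and -1.03 ± 0.241 in KI (difference -1.64). The difference was -1.29 and -1.30 for the longer Cfap46 row, -1.58 and -1.69 for the shorter one, and -1.21 and -1.73 for Cfap221 at 3 and 10 months.

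Per kilobase, Cfap54 stood at 3.28 CPM per kb in control, beside Cfap74 at 3.05 and the shorter Cfap46 row at 2.74, and ranked 10 of the 50 genes formed by the members and Cfap54. In KI it stood at 1.13 CPM per kb and ranked 20, while Cfap74 stood at 3.16 and the shorter Cfap46 row at 2.92. The longer Cfap46 row was at 1.195 in control and 1.01 in KI, and Cfap221 at 0.218 and 0.203.

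**Figure D2:**
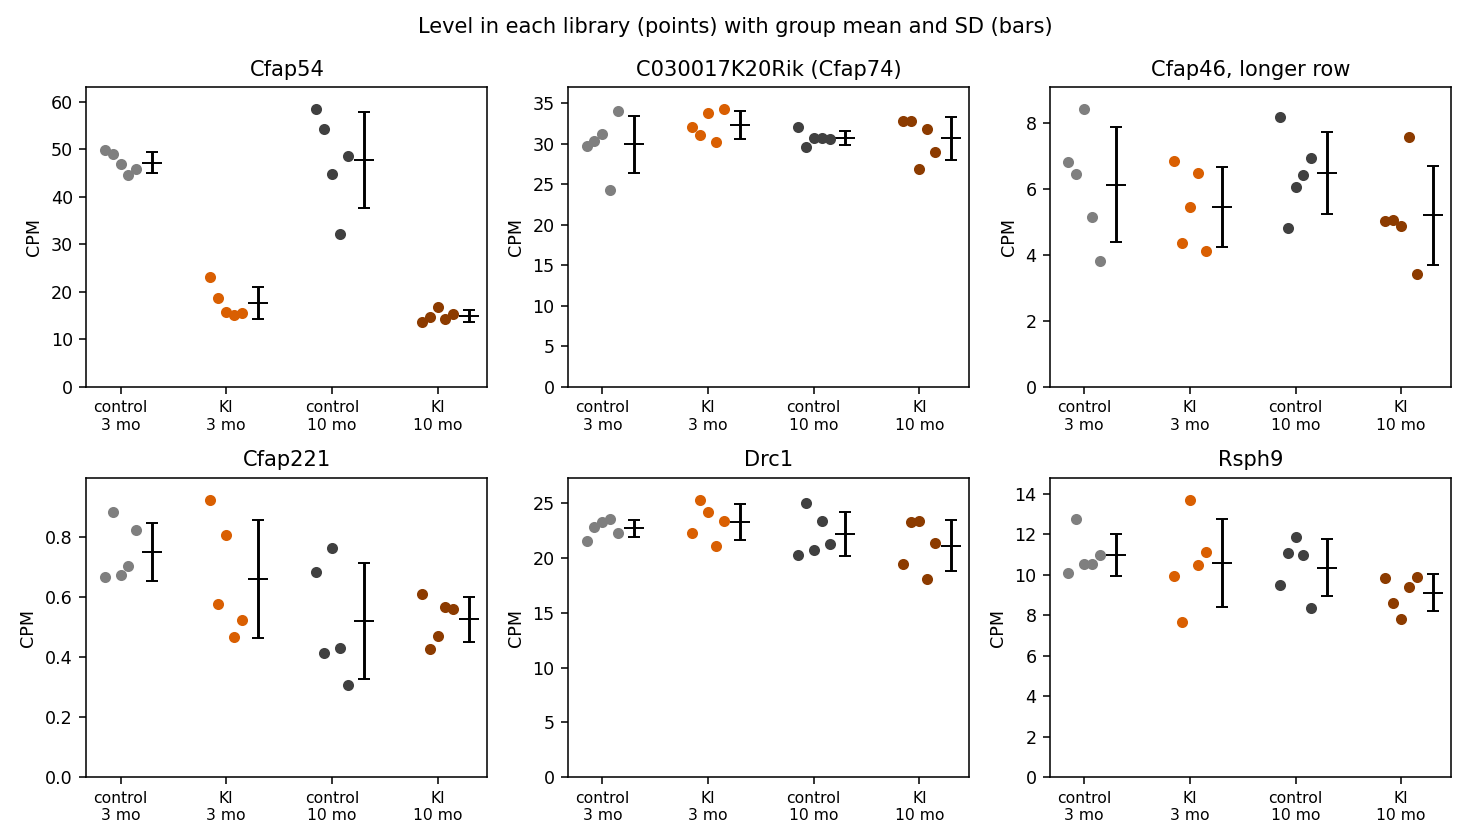
Level in CPM of Cfap54, of 3 of its C1d partners and of 2 further axoneme genes in each library (points), with the mean and SD of 5 libraries (bars), in control and KI at 3 and 10 months. Cfap54 separates the genotypes, at 44.6 to 49.8 against 15.2 to 23.03 CPM at 3 months, while the points of the other 5 genes overlap between genotypes.

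Among the dynein heavy chains, 0 of 15 were called for genotype at either age. Dnah1 stood at 15.8 ± 1.5 CPM in control and 15.0 ± 1.52 in KI at 3 months and at 15.9 ± 1.78 and 15.8 ± 1.65 at 10 months (SD, n = 5 each). Dnah5 stood at 13.3 ± 1.17 and 14.4 ± 3.10 CPM at 3 months and at 13.4 ± 2.44 and 11.8 ± 1.74 at 10 months. The log2 fold changes of Dnah1, -0.07 ± 0.09 and -0.01 ± 0.09, were among the most precise of the class.

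The inner arm chains Dnah7b and Dnah7c had the highest estimates of the class at 3 months. Dnah7b (chromosome 1, 46066315 to 46373546) stood at 4.78, 2.77, 9.55, 2.67 and 6.84 CPM in control and 13.0, 12.1, 9.55, 2.52 and 8.11 CPM in KI at 3 months. At 10 months it stood at 4.41, 7.87, 6.73, 4.97 and 2.64 CPM in control and 7.67, 7.92, 6.41, 7.45 and 10.2 CPM in KI. The groups overlapped at both ages, and a single KI library at 3 months, replicate 6, lay below all control libraries of its age. The log2 fold change was 0.77 ± 0.37 at 3 months and 0.58 ± 0.37 at 10 months, with edgeR adjusted p of 1 and 0.744.

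Dnah7c had 0.75 ± 0.36 and 0.38 ± 0.36, and its lowest library in KI at 3 months was replicate 6, as for Dnah7b. The transcripts of Dnah7a, Dnah7b and Dnah7c are 96.9% to 97.3% identical over 12199 to 12230 bases, and the sources used here do not say how reads that match several copies were counted. Dnah7a, at 2.90 ± 0.236 CPM in control and 2.55 ± 0.257 in KI at 3 months, had -0.19 ± 0.11. The libraries of 10 months stood at 2.63 ± 0.384 and 2.51 ± 0.231 CPM.

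The 3 other dynein chains showed no call for genotype. Dnaic1, an outer arm intermediate chain, stood at 4.57 ± 0.744 CPM in control and 5.03 ± 0.851 in KI at 3 months and at 4.89 ± 0.728 and 4.85 ± 0.471 at 10 months. Dnali1, a light intermediate chain of the inner arms, stood at 1.64 ± 0.389 and 1.63 ± 0.632 CPM at 3 months and at 1.47 ± 0.536 and 1.57 ± 0.271 at 10 months. Dnaic2, the second outer arm intermediate chain, had log2 fold changes of 0.31 ± 0.23 and -0.25 ± 0.23.

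Of the 7 radial spoke genes tested, Rsph10b had the smallest p at 10 months. At 3 months it stood at 14.7, 9.49, 13.0, 12.5 and 15.2 CPM in control and 15.3, 14.9, 14.1, 13.5 and 8.94 CPM in KI. At the later age the levels were 14.7, 9.86, 9.12, 8.67 and 8.61 CPM in control and 17.1, 15.5, 9.39, 15.3 and 16.7 CPM in KI. At 10 months 4 of 5 KI libraries lay above all control libraries, and replicate 5, the library with Xist counts, lay among them. The log2 fold change of 0.54 ± 0.18 did not pass in edgeR (adjusted p = 0.439) and passed in limma-voom with quality weights (0.70, adjusted p = 0.0458). Without replicate 5 of KI it was 0.67 in edgeR (adjusted p = 0.18). At 3 months it was 0.04 ± 0.18. The gene shares 10.48% of its exon bases with Gm42421 on the same strand, and how reads there were assigned is not known.

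Rsph4a, a spoke head gene on chromosome 10 (33905111 to 33916021), had estimates of opposite sign at the 2 ages, and neither passed the test. It stood at 6.26, 6.88, 7.19, 6.99 and 5.79 CPM in control and 11.1, 7.43, 8.40, 5.98 and 7.62 CPM in KI at 3 months. Levels at 10 months were 10.1, 8.47, 7.78, 6.51 and 5.80 CPM in control and 5.65, 5.64, 7.80, 4.39 and 6.61 CPM in KI. The groups overlapped at both ages, and the log2 fold change was 0.29 ± 0.17 at 3 months and -0.36 ± 0.17 at 10 months (edgeR adjusted p = 1 and 0.621). The interaction of genotype and age was -0.65 ± 0.24 (unadjusted p = 0.012, edgeR adjusted p = 0.999).

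Rsph9, another spoke head gene, stood at 11.0 ± 1.04 CPM in control and 10.6 ± 2.16 in KI at 3 months and at 10.3 ± 1.40 and 9.12 ± 0.894 at 10 months. Rsph3a and Rsph3b, which encode spoke stalk proteins, had log2 fold changes between -0.08 and 0.13 at both ages, but their transcripts are 99.2% to 99.4% identical over 1823 bases and their counts are uncertain. Rsph14, the other member on chromosome 10, had -0.09 ± 0.27 and 0.05 ± 0.28.

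In the nexin-dynein regulatory complex, Drc1 was one of the steadiest members and Drc7 the least steady. Drc1, which anchors the complex at its base, stood at 21.6, 22.8, 23.2, 23.6 and 22.3 CPM in control and 22.3, 25.3, 24.2, 21.1 and 23.4 CPM in KI at 3 months. At 10 months it stood at 20.3, 25.03, 20.7, 23.4 and 21.3 CPM in control and 19.5, 23.3, 23.4, 18.1 and 21.4 CPM in KI. The groups lay over each other, and the log2 fold changes of 0.04 ± 0.08 and -0.07 ± 0.08 had 95% intervals from -0.13 to 0.20 and from -0.23 to 0.09.

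Drc7 (chromosome 8, 95055103 to 95078141) stood at 1.51, 3.61, 7.66, 6.73 and 4.37 CPM in control and 7.02, 1.79, 12.9, 2.72 and 7.25 CPM in KI at 3 months. The libraries of 10 months stood at 10.7, 6.34, 11.6, 1.44 and 2.12 CPM in control and 5.79, 1.63, 1.82, 1.71 and 9.05 CPM in KI. High and low libraries occurred in every group. The log2 fold changes of 0.41 ± 0.65 and -0.69 ± 0.65 had the widest intervals of all members.

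The tektins, filament proteins of the doublet wall, showed 0 calls for genotype in 4 tested. Tekt5 stood at 6.30 ± 0.779 CPM in control and 6.35 ± 1.48 in KI at 3 months and at 5.99 ± 1.49 and 6.01 ± 0.144 at 10 months. Tekt1 stood at 2.35 ± 0.386 and 2.56 ± 0.866 CPM at 3 months and at 2.53 ± 0.995 and 2.12 ± 0.628 at 10 months. Tekt2 shares 20.8% of its exon bases with Gm12945 on the opposite strand, and the strand setting of the counting is not known.

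Among the 16 Cfap rows, Cfap58 was the member with the smallest p for genotype. This gene, known from sperm flagella (chromosome 19, 47937712 to 48035379), stood at 0.378, 0.525, 0.652, 0.281 and 0.480 CPM in control and 0.662, 0.862, 1.07, 0.712 and 0.522 CPM in KI at 3 months. At the later age the levels were 0.522, 0.572, 0.599, 0.377 and 0.271 CPM in control and 0.765, 0.575, 0.544, 0.948 and 0.801 CPM in KI. KI libraries were mostly higher, and the groups overlapped at both ages. Its log2 fold change was 0.73 ± 0.26 at 3 months, 0.64 ± 0.26 at 10 months and 0.69 ± 0.18 averaged (edgeR adjusted p = 1, 0.535 and 0.306). Limma-voom with quality weights called the averaged difference (0.87, adjusted p = 0.0469), and libraries held 14 to 53 counts of the gene.

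The most abundant Cfap genes were close between genotypes. Cfap36 stood at 78.0 ± 4.15 CPM in control and 82.8 ± 7.70 in KI at 3 months and at 80.2 ± 5.09 and 84.9 ± 8.10 at 10 months. Cfap20 stood at 34.1 ± 2.04 and 34.4 ± 2.41 CPM at 3 months and at 34.9 ± 2.05 and 37.1 ± 2.15 at 10 months. Their log2 fold changes lay between 0.01 and 0.09, with SE of 0.06 or 0.07. Cfap61, of the complex at the base of a radial spoke, had 0.13 ± 0.13 at 3 months and -0.21 ± 0.13 at 10 months. Cfap70, a protein of the outer arms, had 0.25 ± 0.16 and -0.17 ± 0.16.

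**Figure D3:**
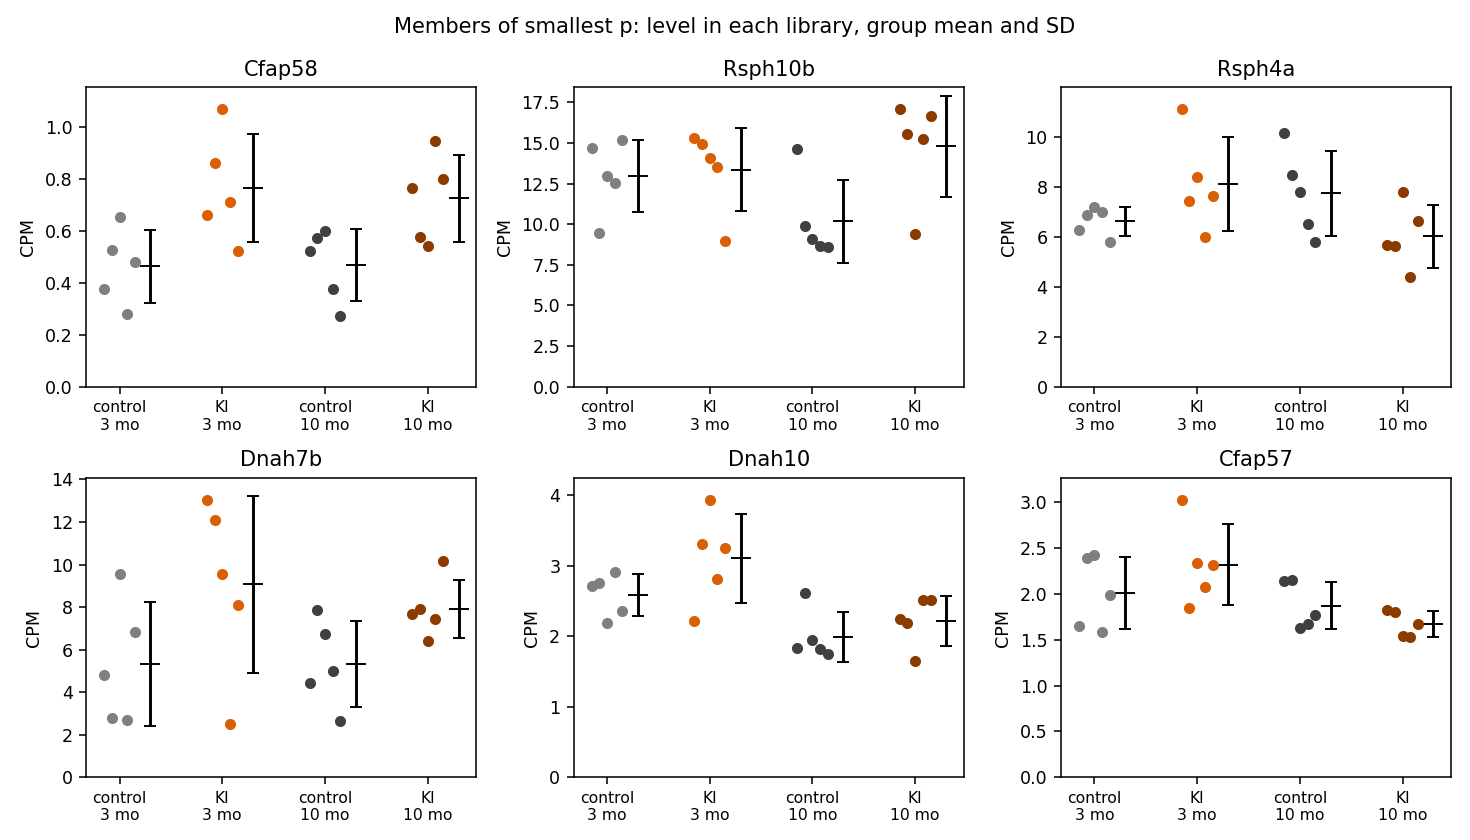
Level in CPM in each library (points), with the mean and SD of 5 libraries (bars), of 6 axoneme genes with small unadjusted p in at least 1 comparison. Rsph10b lies at 8.61 to 14.7 CPM in control and 9.39 to 17.1 CPM in KI at 10 months, and the libraries of Cfap57 in KI lie at 1.53 to 1.82 CPM at 10 months and at 1.85 to 3.03 at 3 months.

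The second comparison was between ages within a genotype. In control, 0 of 47 members were called between 10 and 3 months in edgeR (background 4.07%), with 3 at an unadjusted p under 0.05 (6.38%, against 13.6%), and DESeq2 and limma-voom called 0. In KI, 0 of 47 were called in edgeR (background 8.06%), with 8 at an unadjusted p under 0.05 (17%, against 21.2%). In KI DESeq2 called 3, Dnah10, Cfap57 and Cfap52. Limma-voom called 5 in KI, Dnah10, Cfap52, Rsph4a, Drc1 and the shorter Cfap46 row, the last of them higher at 10 months. No share of all genes called was taken for DESeq2 or limma-voom, so these counts have no background beside them. Members thus passed the tests for age no more often than all genes in edgeR.

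In KI the median log2 fold change of the members between 10 and 3 months was -0.203, with 37 of 47 below 0 (78.7%, against 50.7% of all genes). In control it was -0.018, with 24 of 47 below 0 (51.1%, against 51%). The 2 age contrasts share no library with each other, but each shares libraries with the genotype contrasts. Without KI replicate 5 at 10 months the median in KI was -0.17. The choroid plexus list lay on the same side in KI, with 20 of 20 markers below 0 (median -1.039, none called), and with the choroid plexus score in the model the member median was -0.087. In control the choroid markers lay on the other side (20 of 20 above 0, median 0.703, none called). Thalamic markers were below 0 in KI (12 of 12, median -1.026, 9 called) and in control (12 of 12, median -0.462, 1 called). Markers of meningeal fibroblasts were below 0 for 12 of 12 in KI (median -0.486) and 11 of 12 in control (median -0.249), with none called and 8 and 2 at an unadjusted p under 0.05. In KI, with the thalamus score in the model the member median was -0.094. In KI that score ran from 0.3 to 1.38 at 3 months and from -0.67 to -0.4 at 10 months. These ranges do not overlap, so score and age can hardly be told apart within KI, and nothing is concluded from that median. The part of any of these tissues in the members' values was not tested beyond these fits.

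Dnah10, an inner arm heavy chain (chromosome 5, 124725085 to 124834308), had the smallest p for age in KI. In KI it stood at 2.22, 3.31, 3.93, 2.81 and 3.25 CPM at 3 months and 2.24, 2.19, 1.65, 2.52 and 2.51 CPM at 10 months. In control it stood at 2.71, 2.75, 2.18, 2.91 and 2.36 CPM at 3 months and 1.83, 2.61, 1.94, 1.81 and 1.75 CPM at 10 months. Most libraries of 10 months were lower in both genotypes, with overlap in each. Its log2 fold change was -0.48 ± 0.15 in KI (edgeR adjusted p = 0.0569) and -0.38 ± 0.16 in control (adjusted p = 0.249). DESeq2 gave -0.50 in KI with an adjusted p of 0.0173, and limma-voom -0.58 with 0.00368. Leaving out each library in turn gave -0.58 to -0.39 in KI, with edgeR adjusted p up to 0.134. The lowest KI library at 10 months was replicate 5, the library with Xist counts.

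Cfap57, which encodes an inner arm docking factor (chromosome 4, 118554551 to 118620777), was the only member whose groups did not overlap in any comparison of age or genotype. In KI it stood at 3.03, 1.85, 2.34, 2.07 and 2.31 CPM at 3 months and 1.82, 1.80, 1.54, 1.53 and 1.68 CPM at 10 months. In control it stood at 1.65, 2.39, 2.43, 1.59 and 1.99 CPM at 3 months and 2.15, 2.15, 1.63, 1.67 and 1.77 CPM at 10 months. All KI libraries of 10 months were thus below those of 3 months, a pattern that 1.83% of all genes showed in this direction and 7.17% in either, and 1 of 47 members is near that share. Its log2 fold change was -0.47 ± 0.15 in KI (edgeR adjusted p = 0.0571) and -0.10 ± 0.15 in control. In control 0 of 47 members had groups that did not overlap between ages (5.69% of all genes).

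Cfap52, a protein inside the doublet tubule, had -0.75 ± 0.25 for age in KI (edgeR adjusted p = 0.0788) and -0.20 ± 0.26 in control. It stood at 3.59, 3.06, 5.76, 2.72 and 5.44 CPM at 3 months and 3.38, 2.13, 1.22, 2.81 and 2.74 CPM at 10 months in KI, with the groups overlapping and replicate 5 lowest at 10 months, without which the difference was -0.58 (edgeR adjusted p = 0.155). In control the members of smallest p for age were the shorter Cfap46 row (0.36 ± 0.14, unadjusted p = 0.0173), Dnah10, and Cfap221 (-0.53 ± 0.23, unadjusted p = 0.0345). Cfap54 itself had 0.01 ± 0.13 in control and -0.24 ± 0.13 in KI.

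The interaction of genotype and age was called for 0 of 47 members in edgeR, DESeq2 and limma-voom, as for 0% of all genes in edgeR. At an unadjusted p under 0.05, 1 member, Rsph4a, was found (2.13%, against 4.5% of all genes). The members' median was -0.13, and with the choroid plexus score in the model -0.052. The genotype difference of a member that was small at 1 age and larger at the other is therefore not shown to differ between ages.

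The third description is of the spread between libraries, given for the 39 members at 1 CPM or more. The coefficient of variation between replicates was over 1.5 times that of counting error for 38 of them (97.4%), as for 94.7% of all 15456 rows at this level. Its median was 18.5% for the members and 11.7% for all rows, which differ in level, and among the members it ran from 6.18% for Cfap20 to 71.2% for Drc7, with 55.2% for Dnah6, 41.6% for Dnah7c, 40.8% for Dnah7b and 40.6% for Cfap43. The highest library was one of KI at 3 months for 23 of the 39 members (59%, against 39% of all rows), with replicate 3 highest for 11 and replicate 5 for 8. The highest library was one of control at 3 months for 3 (7.69%, against 13.8% of all rows) and of control at 10 months for 6 (15.4%, against 20.1%). It was one of KI at 10 months for 7 (17.9%, against 27.1%). No share of all rows was taken for single libraries, so the counts for replicates 3 and 5 have no background.

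**Figure D4:**
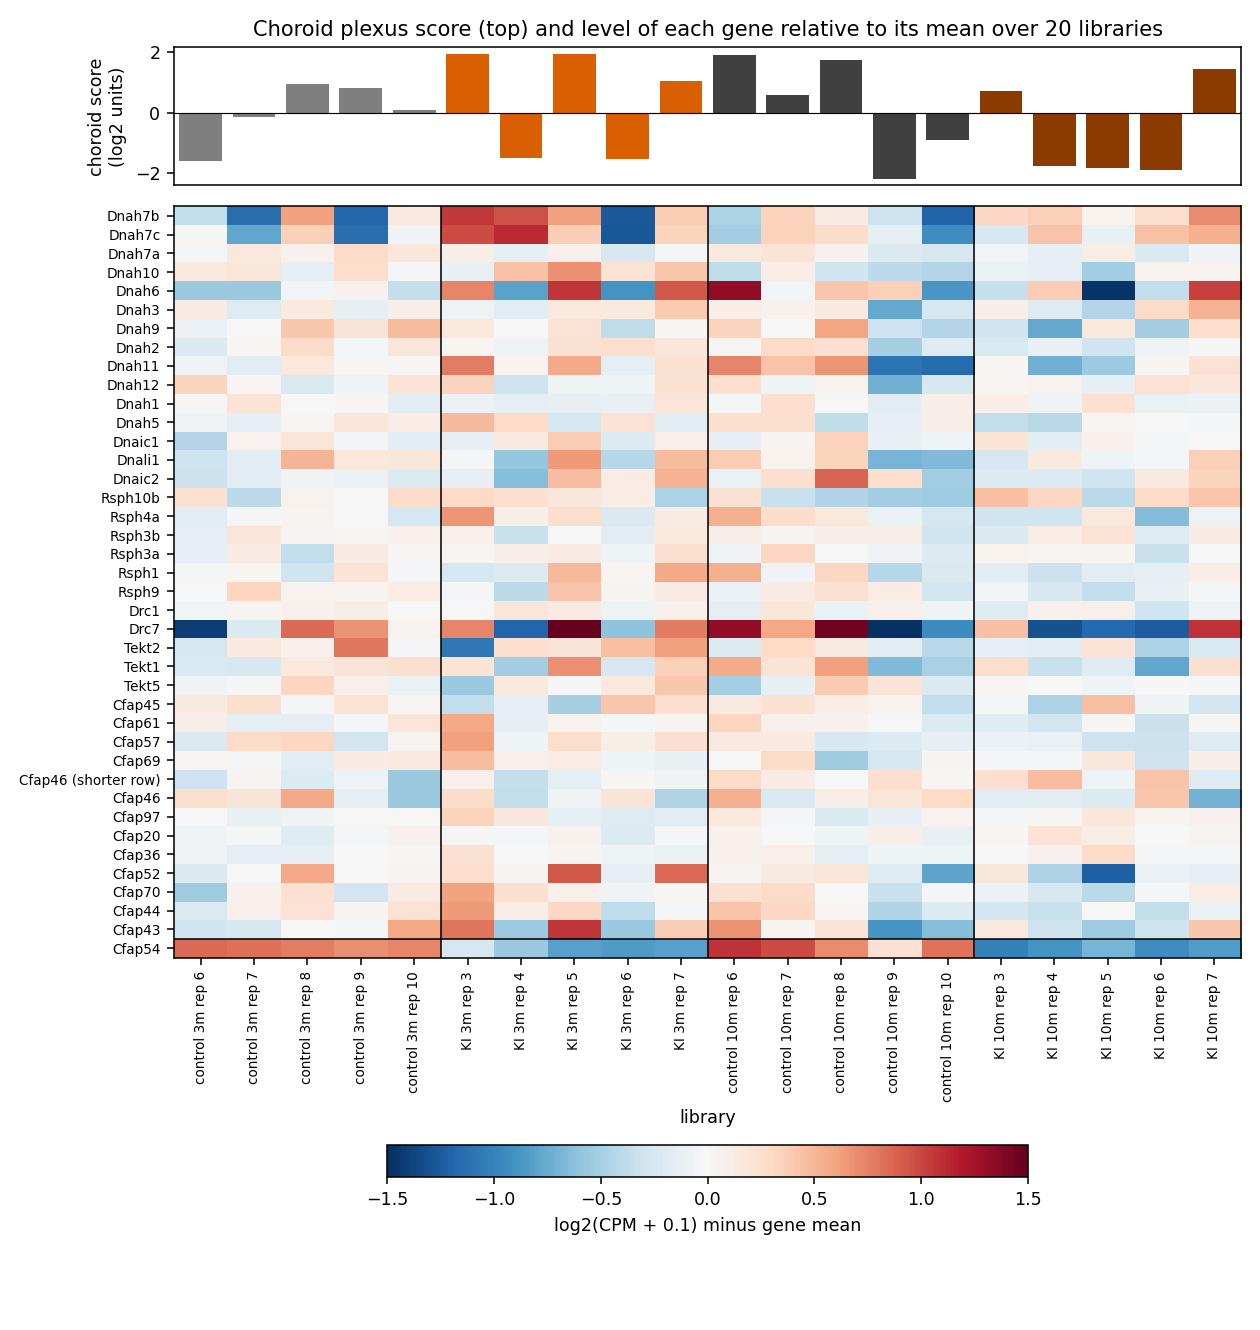
Choroid plexus score of each library (top, mean centred log2 CPM of 20 markers) and log2(CPM + 0.1) minus the mean of the gene (bottom) for the 39 axoneme genes at 1 CPM or more, ordered by role, and Cfap54. Drc7 changes from library to library with the score from -2.20 to 1.96, while Cfap54 in the bottom row changes with genotype.

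A part of this spread went with markers of choroid plexus epithelium, whose cells bear cilia. The score of a library is the mean over 20 choroid markers of centred log2 CPM, and it ran from -1.59 to 0.95 in control and -1.52 to 1.96 in KI at 3 months, and from -2.20 to 1.92 in control and -1.88 to 1.46 in KI at 10 months. A term for the score was added to the group means of all genes after the data had been seen. It was called for 5 of 47 members, all higher with the score (10.6%), against 1.03% of all genes, all of them higher too. The score's own 20 markers are among those genes.

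Drc7 had the steepest slope of the members, 0.72 ± 0.04 log2 units per unit of score (edgeR adjusted p = 3.04e-10). In the 4 libraries with a score of at least 1.75 it stood at 7.02, 12.9, 10.7 and 11.6 CPM, and in those with a score below -1.5 at 1.44 to 2.72 CPM. The other 4 were Cfap43, an inner arm tether (0.33 ± 0.04, adjusted p = 4.36e-05), Tekt1 (0.27 ± 0.04, adjusted p = 6.83e-05), Dnah11, an outer arm heavy chain (0.28 ± 0.06, adjusted p = 0.0094), and Dnali1 (0.23 ± 0.05, adjusted p = 0.0122). Dnah6, an inner arm chain, had 0.33 ± 0.08 (adjusted p = 0.0585). The slope of Cfap54 was 0.05 ± 0.03 (adjusted p = 1), and its genotype difference with the score in the model was -1.44 at 3 months and -1.62 at 10 months.

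The 10 members at 10 CPM or more had slopes from -0.01 (Drc1 and Dnah5) to 0.13 ± 0.03 (Cfap44, adjusted p = 0.102), with 0.06 for Rsph10b and Rsph9, and none was called in edgeR. Leaving out each library in turn gave 4 to 8 members called, with 8 without KI replicate 5 at 10 months. The share of all genes called was not taken in these fits. Drc7, Tekt1 and Cfap43 were called in 20 of the 20 fits, and Dnah11 and Dnali1 in 19. The log2 fold changes of the choroid markers for genotype were above 0 for 20 of 20 at 3 months (median 0.876) and for 0 of 20 at 10 months (median -0.882), and edgeR called 0 at either age, with 0 at an unadjusted p under 0.05.

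**Figure D5:**
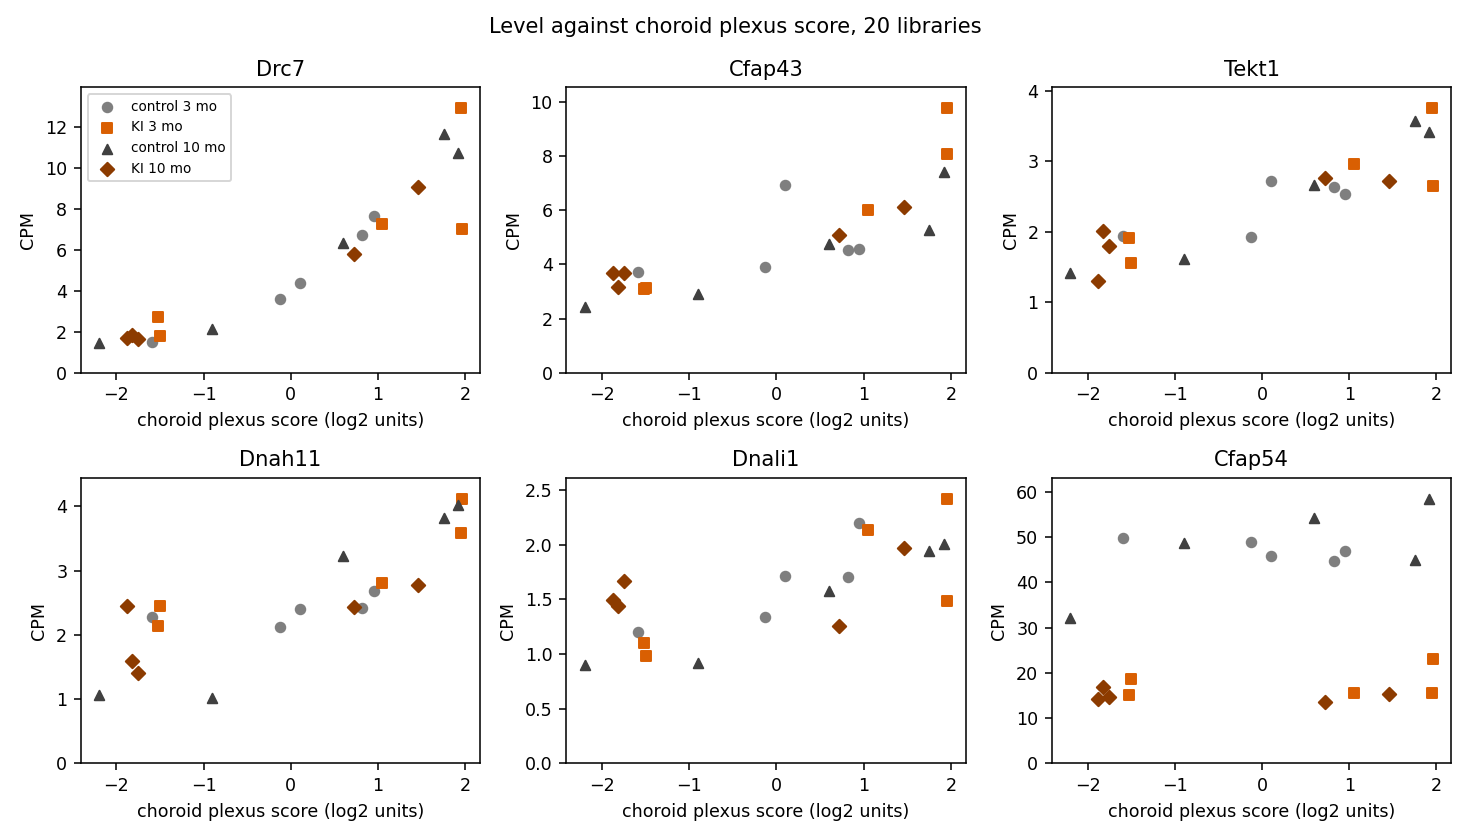
Level in CPM of the 5 axoneme genes called for the choroid plexus score and of Cfap54 against that score in 20 libraries, with a symbol for each group. Drc7, at 1.44 to 12.9 CPM, is higher in libraries of higher score, and Cfap54 lies in separate bands for control and KI at any score.

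Other genes of the cilium were counted from lists. Of 18 tested regulators of ciliogenesis, 28 genes of dynein arm assembly and docking, and 29 genes of the nexin-dynein ruler and inner junction, 0 were called in any of the 6 contrasts in edgeR, with 0 to 3 at an unadjusted p under 0.05 per list and contrast. Foxj1, the master regulator of motile ciliogenesis, had 0.18 ± 0.35 for genotype at 3 months and -0.40 ± 0.35 at 10 months. Rfx2 and Rfx3 had -0.45 ± 0.20 and -0.27 ± 0.14 at 10 months, with edgeR adjusted p of 0.594 and 0.642. Over the 18 regulators the median for genotype was 0.034 at 3 months, with a lowest estimate of -0.1, and -0.048 at 10 months.

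Of 20 tested genes of the central pair outside the rule, 0 were called for genotype, with medians of 0.092 at 3 months and -0.089 at 10 months. Between ages in KI, where 8.06% of all genes were called, 1 of the 20 was called. This was Hydin, the large projection protein whose loss gives hydrocephalus in mice. It was lower at 10 months than at 3 months (-0.66 ± 0.16, edgeR adjusted p = 0.00913). KI replicate 5, the library with Xist counts, was its lowest at 10 months, and no value without that library is given. The genotype difference of Hydin was 0.30 ± 0.15 at 3 months and -0.30 ± 0.16 at 10 months. Of 56 genes of primary cilia and intraflagellar transport, 0 were called for genotype and 1 between ages in KI. The latter was Kif3a, a motor subunit of transport into the cilium, lower at 10 months (-0.26 ± 0.07, edgeR adjusted p = 0.0164). Neither list thus exceeded the share of all genes called between ages in KI. The 29 markers of ependymal and multiciliated cells had 0 calls in all 6 contrasts, with medians of 0.06 for genotype at both ages. They include the defining markers of ependyma given above, so Foxj1 stands in this list and among the regulators.

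The rule depends on the age of the symbols. In GENCODE M21, 15 further protein-coding rows carry a symbol that matches it, of which 14 were tested, Cfap74 among them. With these 64 rows, 0 were called in any of the 6 contrasts in edgeR, and the median was 0.102 for genotype at 3 months and -0.021 at 10 months.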

How the data were processed

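RNA-seq was measured in 20 cortex libraries of 5xFAD mice, 5 per group. Whole-number counts for every gene, not normalized, were deposited as 1 table that also lists coordinates, symbols and biotypes; coordinates are on mm10, as the submitters' processing notes name it. Neither the aligner and counting program nor the strand setting and annotation release are given in the sources used here. A check of cortical neuron markers is not reported here.

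Differences in the deposited counts were fitted by edgeR 4.0.16 (R 4.3.3), filterByExpr by group, TMM scaling (factors 0.972 to 1.03), and a robust quasi-likelihood F test of 4 group means with 16 residual degrees of freedom. P-values were adjusted by Benjamini-Hochberg over 19623 genes per contrast, with calls under 0.05. CPM uses the scaled library totals. Levels per kilobase divide CPM by the deposited gene length. A planned permutation test of Cfap54 and its ratios is not used, since the fall of Cfap54 was known beforehand. The steps were tested on simulated data. The members, the gene lists and the rule for named members were chosen with earlier results of these data known. Members named were the 2 of highest level per kilobase in each role, the C1d partners, any called member, and the 3 or 4 of smallest p per contrast. Further members are named in summaries, where they were chosen after their values were seen.

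Deposited coordinates matched GENCODE M21 exactly for 34 of 49 rows with a record there. Exons of 21 members overlap another gene, 3 of them by at least 10 percent. As alternatives the fits used RLE scaling, all rows without a filter, a mean of at least 1 CPM, DESeq2 1.42.0, limma-voom (limma 3.58.1) with quality weights, only the libraries compared, a replicate block, the choroid plexus or thalamus score as covariate, a threshold of 0.10, other member lists and leaving out each library. The thalamus score, the list by M21 symbols and the choroid slope were added after the data had been seen.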

Additional observations from a re-analysis of the deposited data

Results flagged for a closer look

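In 8 of 100 groups of 5 libraries tested, over 24 named members and Cfap54, the highest or lowest library stood apart from the other 4. Chance gives about 1 in 20 such groups. Rsph10b had 3 of them: KI replicate 7 at 3 months was low at 8.94 CPM (others 13.5 to 15.3), control replicate 6 at 10 months was high at 14.65 CPM (others 8.61 to 9.86), and KI replicate 5 at 10 months was low at 9.391 CPM (others 15.3 to 17.1). In KI at 3 months Dnah1 was high in replicate 7 at 17.71 CPM (others 14.1 to 14.6), and Cfap61 was high in replicate 3 at 6.808 CPM (others 4.17 to 4.72). Cfap36 was high in KI replicate 5 at 10 months at 98.82 CPM (others 79.4 to 84.9), the library with Xist counts. Dnah10 was high in control replicate 7 at 10 months at 2.609 CPM (others 1.75 to 1.94), and Cfap52 was high in control replicate 8 at 3 months at 4.472 CPM (others 2.55 to 3.07).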

How the results depend on the processing

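The count of members called for genotype was 0 under every alternative run at 3 months. At 10 months and averaged over ages it was 0 under all but limma-voom, which gave 1 in each. For age in KI it was 2 with RLE scaling (Dnah10, Cfap57), 3 with DESeq2, 5 with limma-voom, 3 at a threshold of 0.10, and 0 to 1 when each library was left out: 1 without control replicate 7 or 10 or KI replicate 3, 4 or 6 at 3 months, and without control replicate 7 or KI replicate 7 at 10 months. The cause was not tested. No share of all genes called was taken for these settings, so the counts are not set against a background. Leaving out each library gave Cfap54 -1.53 to -1.37 for genotype at 3 months, -1.80 to -1.59 at 10 months and -1.61 to -1.5 averaged. Its age difference in control, 0.01, changed sign to -0.01 with the replicate block and with the choroid plexus score, and ran from -0.07 to 0.13 when each library was left out. The choroid slope gave 4 to 8 members called when each library was left out (8 without KI replicate 5 at 10 months). It gave 6 without the libraries of lowest and highest score. Shares of all genes called were not taken in these slope fits.

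A shared replicate number did not go with shared deviations from the group means: r ran from -0.34 to 0.28 over 18 same-numbered pairs, 3 of them above 0.1, and for 1 of 20 libraries the best match had its own number. The replicate block left the members called at 0 in every contrast and gave Cfap54 -1.70 at 3 months and -1.91 at 10 months. That fit links the genotypes only through replicate numbers 6 and 7, so its genotype values rest on fewer libraries. Members below 1 CPM rest on few counts, and for them a small difference was not detectable at this depth. Small differences could also be missed at higher levels, as for Drc7 and Dnah6, with SE of 0.65 and 0.45 for genotype at 3 months.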

Other observations

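Levels of Rsph10b, a radial spoke gene, were split within groups. It stood between 8.61 and 9.86 CPM in control replicate 7 and KI replicate 7 at 3 months, and in control replicates 7, 8, 9 and 10 and KI replicate 5 at 10 months. In the remaining libraries of all 4 groups it stood between 12.5 and 17.1 CPM, with none in the gap between these ranges.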
